A study of Mus musculus with 12 samples.

Results

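The genes described here are those of major histocompatibility complex (MHC) class I molecules and of the machinery that loads them with peptide in the mouse: the heavy chains H2-K1, H2-D1, H2-T23 and H2-M3, the light chain B2m, the peptide transporter Tap1 and Tap2, the loading factors Tapbp and Tapbpl, and the peptide-trimming enzyme Erap1. They were measured in B16-OVA, a mouse melanoma cell line that carries the model antigen ovalbumin, grown in culture. Cells received either GDC-0623 at 100 nM, which blocks the kinase MEK and is called MEKi here, or its solvent DMSO at the same concentration, and RNA was taken 24 h or 72 h later, which gave 4 groups of 3 Affymetrix Mouse 430 2.0 arrays (12 arrays in all). All 4 groups are thus of 1 tumor line grown alone in culture, and all of them carry ovalbumin. On this array a transcript is read by a probe set, a group of short probes near its 3' end. Members were taken as every probe set that the array annotation pairs with 1 of the 10 genes alone, which gave 27 probe sets for 9 genes out of 18193 genes with a probe set of their own. H2-T23 shares its probe sets with another gene and was not analysed here, and 5 probe sets that name a member beside another gene were not used.

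Class I molecules display short peptides from proteins made inside the cell to CD8+ T cells. The proteasome cuts the peptides, Tap1 and Tap2 together carry them into the endoplasmic reticulum, Erap1 trims them, and tapasin (Tapbp) holds the empty heavy chain and B2m beside the transporter until a well-fitting peptide is bound, while Tapbpl (also called TAPBPR) edits peptides away from the transporter. H2-K1 and H2-D1 encode the classical heavy chains that present antigen to most CD8+ T cells, H2-M3 is a non-classical chain that binds N-formylated peptides, and melanomas with low levels of these genes are known to be poorly seen by T cells.

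Which probe set reads which heavy chain was a limit throughout. Of the 27 probe sets, 12 carry the maker's x mark, for probes that may bind transcripts of other genes, and 11 of these are among the 13 probe sets of H2-K1 and H2-D1, whose sequences are closely related. A further 3 carry the a mark, for probes that match several transcripts of 1 gene, and 12 carry no mark. In 17 of the 27 the mean log2 signal lay above 5.36, the median over all probe sets, so that the other 10 were dim. Values below are log2 RMA signals, and groups are compared within a probe set. A difference is in log2 units with its moderated standard error (SE), a change is called where the adjusted p of limma, taken over all 45037 probe sets tested, is below 0.05, and n is 3 arrays per group. The labels speak of biological replicates and do not say whether these were separate cultures, and p-values here reflect only how far these samples spread, which may be technical.

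The cells carried the melanocyte genes of their label: 7 of 7 markers lay above the median probe set, and their mean over the list was 13.4 to 13.6 on every array. All 5 genes of the ERK output list, which MEK inhibition is known to lower, were lower with MEKi at 24 h and 4 of 5 at 72 h. At 72 h the Spry4 call (adjusted p = 0.0452 with limma) was lost with the replicate number as a block. It was also lost without any 1 array but DMSO array 2 (adjusted p up to 0.157). For leukocytes, 9 of 10 markers were measured, with Ptprc (CD45) at 2.81 to 3.47, and 6 of the 9 lay below the median probe set in each group but MEKi at 72 h, where 5 did. The mean over these 9 rose in small steps with the groups, from 4.61 to 4.65 on the DMSO arrays at 24 h over 4.70 to 4.76 with MEKi at 24 h and 4.76 to 4.80 in DMSO at 72 h to 4.84 to 4.91 with MEKi at 72 h. Lyz2, an enzyme of myeloid cells, was higher with MEKi at 24 h (0.38 ± 0.071, adjusted p = 0.0173) and Cd68, a lysosomal protein of macrophages and other cells, at 72 h (0.66 ± 0.149, adjusted p = 0.0279), both with limma. The other 8 of the 9 markers were not called at either of these times. Of all probe sets 3.83% were called higher at 24 h and 2.99% at 72 h. The Lyz2 call was lost without any 1 DMSO array or MEKi array 2 (adjusted p up to 0.0672), and its effects at the 2 times differed by -0.41 ± 0.121 (adjusted p = 0.090, and 0.0472 with the replicate block). The Cd68 call was lost without any 1 array but MEKi array 3 (adjusted p up to 0.099). The part of these markers in the results was not tested. Arrays of 1 group correlated at 0.9957 to 0.9983 and those of different groups at 0.9869 to 0.9967.

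The promoters of the 4 genes whose brightest probe sets were higher both over time and with MEKi at 72 h are shown. The genes were picked by these values, and H2-K1 and H2-D1 have other probe sets that did not rise with MEKi at 72 h. The sequences are the 250 bases before the annotated start from RefSeq on build GRCm38.p6. Capitals mark matches to the motifs named after them.
H2-K1 (chr17:34000334-34000583, minus strand): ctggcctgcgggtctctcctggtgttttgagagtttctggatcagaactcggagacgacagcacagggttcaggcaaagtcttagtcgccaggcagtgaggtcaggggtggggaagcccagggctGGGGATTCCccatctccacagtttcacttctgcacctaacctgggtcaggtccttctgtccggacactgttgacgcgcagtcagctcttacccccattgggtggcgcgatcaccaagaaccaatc
H2-D1 (chr17:35262844-35263093, plus strand): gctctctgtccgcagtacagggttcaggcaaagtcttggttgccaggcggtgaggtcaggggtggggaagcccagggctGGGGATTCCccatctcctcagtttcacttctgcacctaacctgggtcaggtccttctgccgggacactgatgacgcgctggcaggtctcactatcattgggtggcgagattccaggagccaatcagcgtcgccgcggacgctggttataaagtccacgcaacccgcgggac
B2m (chr2:122147437-122147686, plus strand): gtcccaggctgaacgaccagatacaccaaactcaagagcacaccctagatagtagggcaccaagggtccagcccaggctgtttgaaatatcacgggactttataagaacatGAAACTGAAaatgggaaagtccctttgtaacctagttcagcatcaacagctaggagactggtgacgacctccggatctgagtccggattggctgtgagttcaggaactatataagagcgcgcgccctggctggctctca
Tapbp (chr17:33919228-33919477, plus strand): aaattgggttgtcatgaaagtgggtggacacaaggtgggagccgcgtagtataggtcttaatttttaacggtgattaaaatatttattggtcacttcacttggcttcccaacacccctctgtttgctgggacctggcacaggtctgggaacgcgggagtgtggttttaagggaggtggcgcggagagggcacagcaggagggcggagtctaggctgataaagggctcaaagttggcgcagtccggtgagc

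In these letters the classical heavy chains stood together. The windows searched ran from 250 bases before to 50 bases after the start, for 8 of the 10 members and for 32851 windows in all, on both strands and for 4 motifs. The enhancer A site of class I promoters, a binding site of NF-kB spelled GGGGATTCC, was found in the windows of H2-K1 and H2-D1 only among the members and in 0.25% of all windows. Aligned end to end, the windows of these 2 genes were identical at 222 of 253 aligned bases (87.7%), with 47 identical bases in 1 run. The core repeat of the interferon-stimulated response element, written GAAANNGAA, was in the windows of H2-T23, B2m and Erap1 and in 8.56% of all windows. Only this spelling was searched. A differently spaced one, such as tttcacttc in the windows of H2-K1, H2-D1 and H2-M3, was missed. The search thus does not show that these windows lack such an element. The gamma-activated site TTCNNNGAA was in that of H2-M3 alone among the members and in 8.3% of all windows. The inverted CCAAT box ATTGG, not capitalised, was in those of 7 members and in 37.4% of all windows. The Tapbp window held the CCAAT box alone of these motifs. A match describes the letters and says nothing of binding in these cells.

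A part of the class I probe sets was higher with MEKi at 24 h. Of 27 member probe sets 6 were higher and 0 lower with MEKi, against 3.83% of all probe sets called higher and 4.61% called lower. An unadjusted p below 0.05 was seen for 10 members, all of them higher. The share of all probe sets at that threshold is not given, so the 10 cannot be set against it. The median difference was 0.15 over the members and 0.0067 over all probe sets. By the brightest probe set of each gene, 4 of 9 genes were higher: H2-K1, H2-D1, Tapbp and Tapbpl. At 72 h, 9 member probe sets were higher and 1 was lower, against 2.99% and 4.25% of all, with a median of 0.19 against 0.013. By the brightest probe set the 4 genes higher at 72 h were H2-K1, H2-D1, B2m and Tapbp. The H2-K1 and H2-D1 probe sets counted here carry the x mark, and their difference stayed within 0.11 to 0.27 on all 12 arrays. They may thus not be separate readings. Averaged over its probe sets, neither H2-K1 nor H2-D1 passed at either time. The shares given here are over all probe sets, and none over the brightest probe sets of all genes is given for these gene counts. The comparisons over time below share arrays with these.

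**Figure D1:**
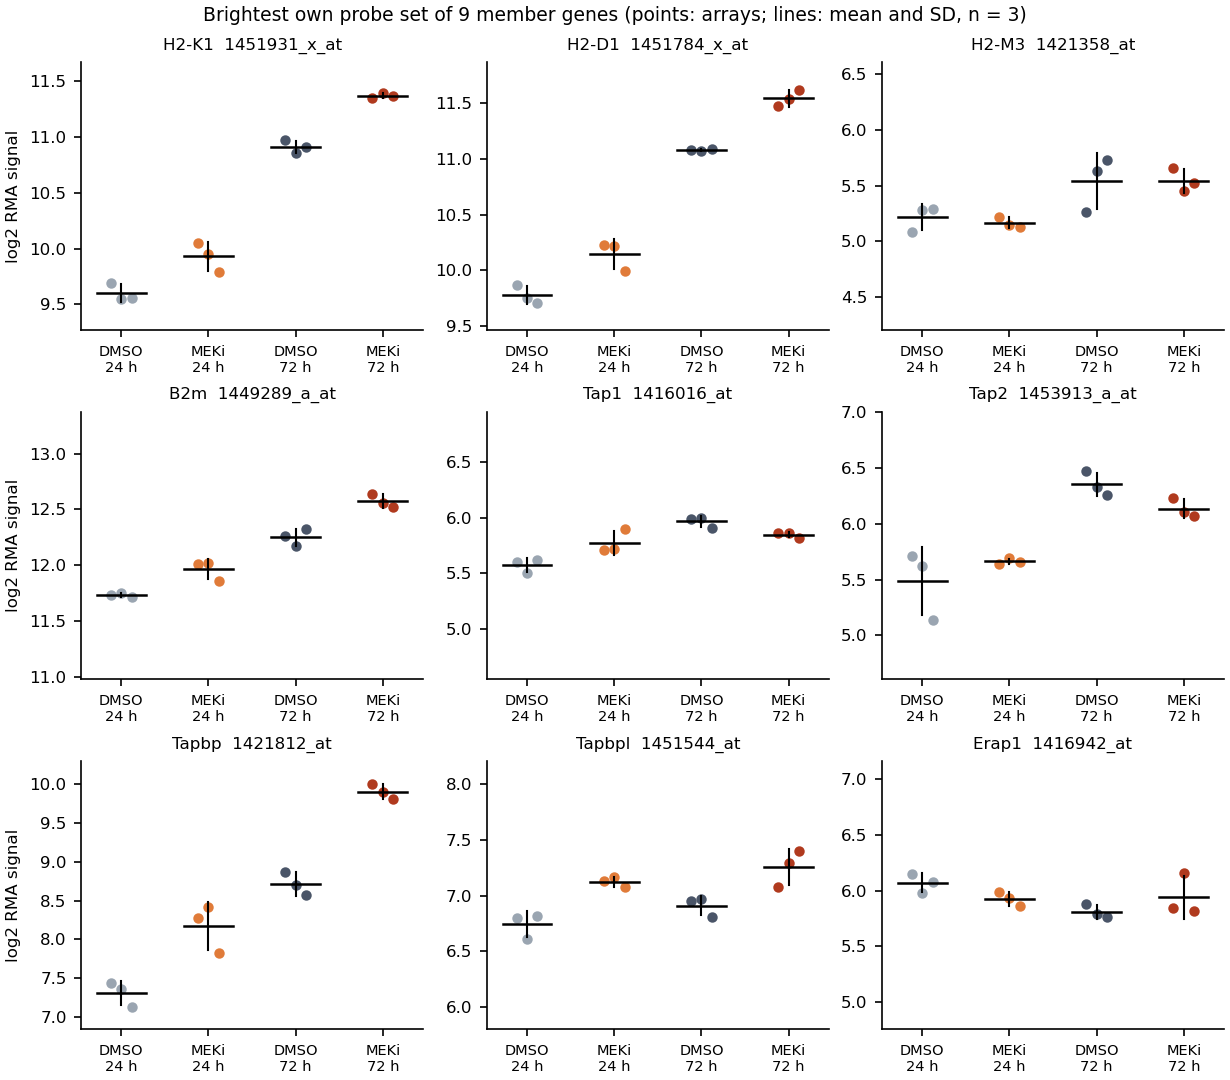
The log2 RMA signal of the brightest own probe set of 9 genes is plotted for each of the 12 arrays (points) by group, with the mean and SD of 3 arrays (lines). Tapbp ran from a mean of 7.31 in DMSO at 24 h to 9.91 with MEKi at 72 h, and in H2-K1, H2-D1, B2m and Tapbp each group lay above the one before it, with no overlap, whereas Tap1 and Tap2 were highest in DMSO at 72 h.

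Tapbp, the gene of tapasin, showed the largest MEKi differences of the member genes at both times. Its brighter probe set 1421812_at read 7.43, 7.36 and 7.13 in DMSO at 24 h and 8.28, 8.42 and 7.82 with MEKi. Its 72 h values were 8.87, 8.70 and 8.57 in DMSO and 10.01, 9.90 and 9.81 with MEKi. The groups did not overlap at either time, and the third MEKi array at 24 h was the lowest of its group. The difference was 0.87 ± 0.151 at 24 h (1.82-fold, adjusted p = 0.0133 with limma) and 1.19 ± 0.10 at 72 h (2.29-fold, adjusted p = 0.000577). The second probe set, 1450378_at, carries no mark either and read 6.11, 6.04 and 5.66 in DMSO against 6.66, 6.62 and 6.63 with MEKi at 24 h. At 72 h its values were 7.21, 7.06 and 7.07 in DMSO and 7.89, 7.86 and 7.98 with MEKi. It rose by 0.70 ± 0.112 at 24 h (1.62-fold, adjusted p = 0.010 with limma) and by 0.80 ± 0.0842 at 72 h (1.74-fold, adjusted p = 0.00111). At 24 h 1421812_at lost its call without MEKi array 1 or 2, with an adjusted p of up to 0.0626, while 1450378_at kept its call at both times without any 1 array.

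Tapbpl, the tapasin-related peptide editor, was higher with MEKi at 24 h by a smaller step. Probe set 1451544_at read 6.80, 6.61 and 6.82 in DMSO and 7.13, 7.17 and 7.08 with MEKi at 24 h, a difference of 0.38 ± 0.0749 (1.30-fold, adjusted p = 0.0195 with limma). At 72 h it read 6.95, 6.97 and 6.81 in DMSO and 7.08, 7.29 and 7.40 with MEKi, with no overlap, and the difference of 0.35 ± 0.101 did not pass (adjusted p = 0.0725). The 24 h call was lost without DMSO array 1 or 2 or MEKi array 1 or 2 (adjusted p up to 0.0807). The dimmer probe set 1424961_at differed by 0.15 at 24 h and 0.26 at 72 h and was not called.

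H2-K1, the classical heavy chain that presents the best-known ovalbumin peptide in this mouse strain background, was read by 4 probe sets, all with the x mark. The brightest, 1451931_x_at, read 9.69, 9.55 and 9.56 in DMSO and 10.05, 9.95 and 9.79 with MEKi at 24 h. Its values at 72 h were 10.97, 10.86 and 10.91 in DMSO and 11.35, 11.39 and 11.37 with MEKi. The groups were apart at both times, by 0.33 ± 0.0828 at 24 h (1.26-fold, adjusted p = 0.0465 with limma) and 0.46 ± 0.0779 at 72 h (1.37-fold, adjusted p = 0.00814). The 24 h call was lost without any 1 DMSO array or MEKi array 1 or 2 (adjusted p up to 0.151), and with arrays centred on their median it missed as well (adjusted p = 0.0525), while the 72 h call was kept under every alternative run on this probe set.

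The other H2-K1 probe sets did not follow the first at 72 h. Probe set 1425336_x_at read 8.05, 7.87 and 7.91 in DMSO and 8.63, 8.40 and 8.28 with MEKi at 24 h, a rise of 0.49 ± 0.0981 (1.41-fold, adjusted p = 0.0206 with limma). That call was lost without DMSO array 2 or 3 or MEKi array 1 or 2 (adjusted p up to 0.0733). The 72 h arrays read 10.79 and 10.43 on DMSO arrays 1 and 3, with array 2 the lowest of its group (mean 10.44 ± 0.345 SD), and 10.33, 10.03 and 10.43 with MEKi. These groups overlapped, with a difference of -0.18 ± 0.166 (adjusted p = 0.631). Probe set 1427746_x_at gave 0.24 at 24 h and -0.31 at 72 h, and the dim 1450534_x_at -0.03 and 0.19, none of them called. Averaged over its 4 probe sets, H2-K1 differed by 0.26 ± 0.0849 at 24 h (adjusted p = 0.079 with limma) and 0.04 ± 0.113 at 72 h (adjusted p = 0.883) and was not called. Within each array, the difference between 1451931_x_at and 1425336_x_at was 0.18, 0.76 and 0.48 log2 units in DMSO at 72 h and 1.02, 1.36 and 0.94 with MEKi, and it was 1.64, 1.68 and 1.65 against 1.42, 1.55 and 1.51 at 24 h. The groups were apart at both times and in opposite order. This pair of probe sets was chosen after its values were seen and the ratio is a description, without a test.

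**Figure D2:**
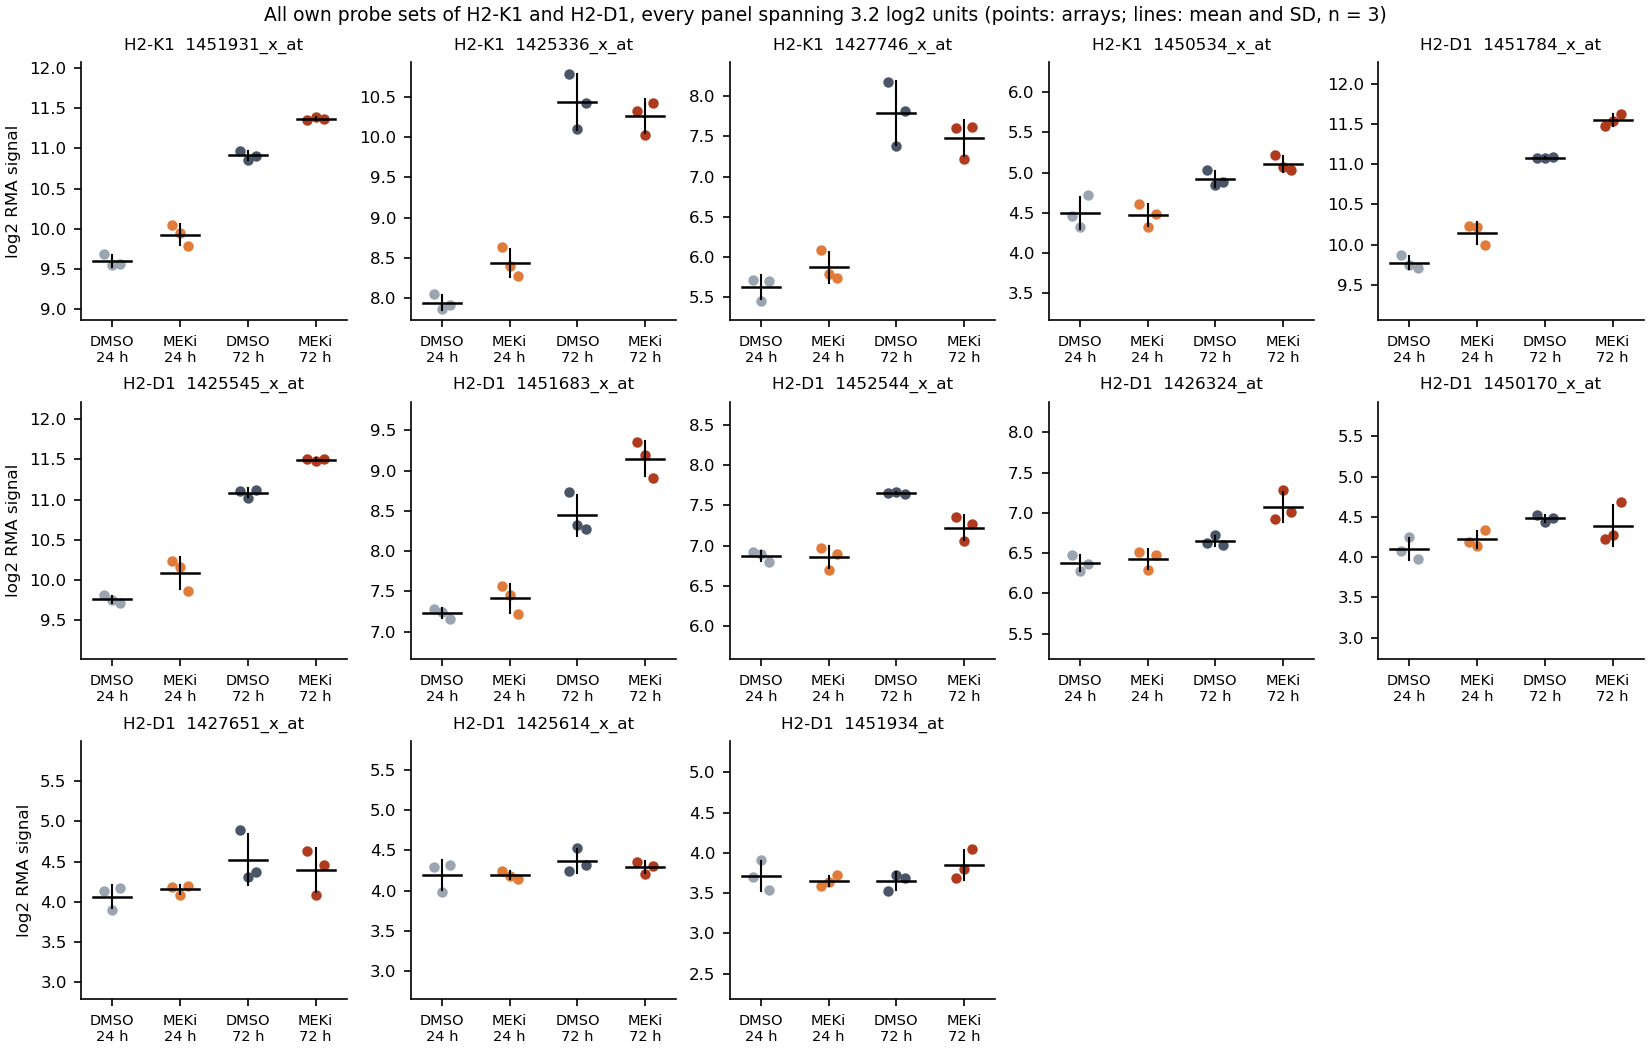
The log2 RMA signal of the 13 own probe sets of H2-K1 and H2-D1 is plotted for each array (points) by group, with mean and SD (lines), every panel spanning the same range. All 4 H2-K1 probe sets were higher at 72 h than at 24 h, while with MEKi at 72 h 1451931_x_at lay above its DMSO arrays and 1425336_x_at and 1427746_x_at overlapped theirs.

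H2-D1, the other classical heavy chain, was read by 9 probe sets. Its brightest, 1451784_x_at, read 9.87, 9.75 and 9.71 in DMSO and 10.23, 10.22 and 9.99 with MEKi at 24 h. In the 72 h groups it read 11.08, 11.07 and 11.09 in DMSO and 11.47, 11.54 and 11.62 with MEKi. The difference was 0.37 ± 0.0848 at 24 h (1.29-fold, adjusted p = 0.0339 with limma) and 0.46 ± 0.0799 at 72 h (1.38-fold, adjusted p = 0.00848). As with H2-K1, the 24 h call was lost without any 1 DMSO array or MEKi array 1 or 2 (adjusted p up to 0.125) and the 72 h call was kept under every alternative run on this probe set. Averaged over all 9 probe sets, H2-D1 differed by 0.12 ± 0.0541 at 24 h (adjusted p = 0.193) and 0.16 ± 0.066 at 72 h (adjusted p = 0.171) and was not called. Probe set 1425545_x_at followed it closely, with 0.33 ± 0.0976 at 24 h (adjusted p = 0.0776) and 0.41 ± 0.0778 at 72 h (adjusted p = 0.0122, limma). The 72 h call of 1425545_x_at was lost without MEKi array 1 or 2 (adjusted p up to 0.0527). The difference between 1451784_x_at and H2-K1 1451931_x_at stayed within 0.11 to 0.27 on all 12 arrays, 0.18 ± 0.048 (SD), and both carry the x mark, so that how far either reads the other gene cannot be told apart here.

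Further H2-D1 probe sets moved in both directions at 72 h. Probe set 1451683_x_at read 8.74, 8.32 and 8.28 in DMSO and 9.35, 9.19 and 8.91 with MEKi at 72 h, a rise of 0.70 ± 0.145 (1.63-fold, adjusted p = 0.0186 with limma). The brighter of its probe sets without the mark, 1426324_at, rose from 6.63, 6.72 and 6.60 to 6.92, 7.28 and 7.01, by 0.42 ± 0.104 (1.34-fold, adjusted p = 0.0406). In the opposite direction, 1452544_x_at read 7.65, 7.67 and 7.64 in DMSO and 7.35, 7.05 and 7.27 with MEKi, a difference of -0.43 ± 0.0944 (adjusted p = 0.024). At 24 h the same 3 probe sets differed by 0.19, 0.05 and -0.02 and were not called. Each of these 3 calls at 72 h was lost without 1 of 4 or 5 arrays: 1451683_x_at without DMSO 2 or 3 or MEKi 1 or 2 (adjusted p up to 0.080), 1426324_at without any DMSO array or MEKi 2 or 3 (up to 0.144), and 1452544_x_at without any DMSO array or MEKi 2 (up to 0.098). The other 4 H2-D1 probe sets were dim, with differences from -0.13 to 0.20 at 72 h and -0.07 to 0.12 at 24 h, and none was called.

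B2m, the light chain shared by all class I molecules, was read by 2 probe sets with the a mark and rose by small steps at 72 h. Probe set 1449289_a_at read 11.73, 11.75 and 11.71 in DMSO and 12.01, 12.02 and 11.86 with MEKi at 24 h, and 12.26, 12.17 and 12.32 against 12.64, 12.56 and 12.52 at 72 h. Probe set 1452428_a_at read 11.68, 11.64 and 11.72 against 11.94, 11.90 and 11.78 at 24 h, and 12.20, 12.20 and 12.28 against 12.55, 12.58 and 12.57 at 72 h. All MEKi arrays lay above all DMSO arrays of their time on both. At 24 h the differences were 0.23 ± 0.0669 (adjusted p = 0.0705 with limma) and 0.19 ± 0.0671 (adjusted p = 0.123), which did not pass. At 72 h they were 0.32 ± 0.083 (1.25-fold, adjusted p = 0.0455) and 0.34 ± 0.077 (1.27-fold, adjusted p = 0.0275). With the replicate number as a block, 1449289_a_at did not pass at 72 h (adjusted p = 0.0569), and its call was lost without any 1 array (adjusted p up to 0.156). That of 1452428_a_at was lost without 1 of 5 arrays, all but DMSO 3 (adjusted p up to 0.108). Averaged over both probe sets before the fit, B2m passed at both times, with 0.21 ± 0.0573 (adjusted p = 0.0412) and 0.33 ± 0.0653 (adjusted p = 0.0132).

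The transporter was not called in either MEKi comparison. For Tap1 the brightest of 4 probe sets, 1416016_at, read 5.60, 5.50 and 5.62 in DMSO and 5.71, 5.72 and 5.90 with MEKi at 24 h, all higher. The 72 h values were 5.99, 6.0 and 5.91 in DMSO and 5.86, 5.86 and 5.82 with MEKi, all lower. The differences were 0.20 ± 0.075 (95% interval 0.03 to 0.38, adjusted p = 0.143 with limma) and -0.12 ± 0.0775 (-0.29 to 0.05, adjusted p = 0.446). The other 3 Tap1 probe sets were dim and differed by -0.06 to 0.11 at 24 h and 0.02 to 0.17 at 72 h. Tap2, read by 1453913_a_at alone, gave 5.71, 5.62 and 5.14 in DMSO and 5.64, 5.69 and 5.66 with MEKi at 24 h, overlapping groups. The 72 h groups gave 6.47, 6.33 and 6.26 in DMSO and 6.23, 6.11 and 6.07 with MEKi, without overlap. Its differences were 0.17 ± 0.135 (-0.14 to 0.48, adjusted p = 0.506) and -0.22 ± 0.090 (-0.42 to -0.02, adjusted p = 0.209).

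H2-M3 and Erap1 showed no called MEKi difference. The single H2-M3 probe set, 1421358_at, lay close to the median of all probe sets and differed by -0.05 ± 0.0757 at 24 h (95% interval -0.22 to 0.12) and by 0.0033 ± 0.124 at 72 h (-0.27 to 0.28). For Erap1, 1416942_at differed by -0.14 ± 0.0706 at 24 h (adjusted p = 0.271 with limma) and 0.13 ± 0.105 at 72 h (adjusted p = 0.563), and the dim 1439068_at by -0.09 ± 0.109 (95% interval -0.34 to 0.16) and 0.20 ± 0.114 (-0.06 to 0.45).

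**Figure D3:**
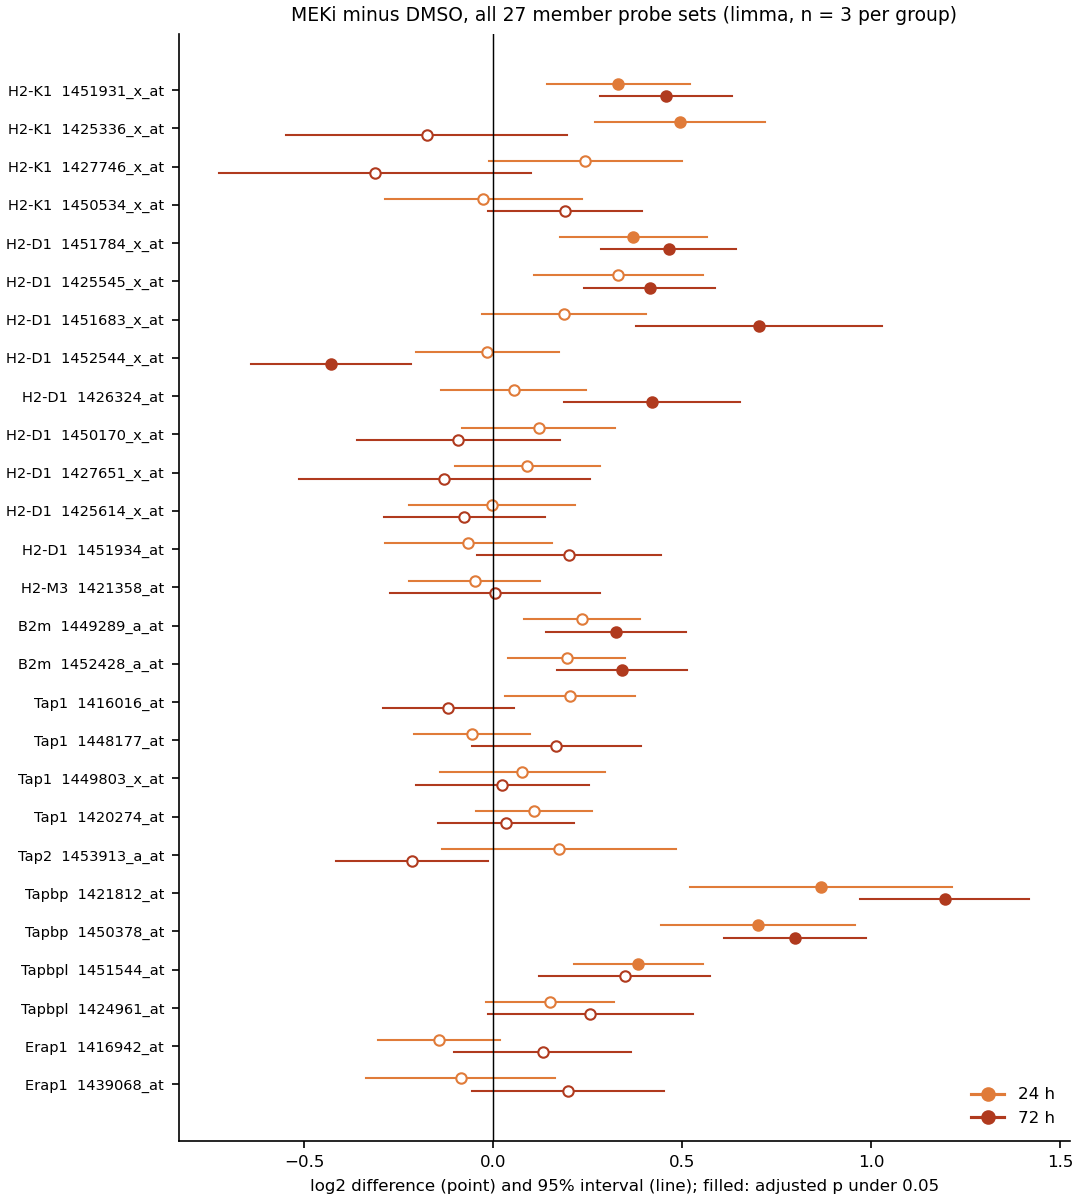
The log2 difference of MEKi minus DMSO (point) with its 95% interval (line) is plotted for all 27 member probe sets at 24 h and 72 h, filled where the adjusted p of limma was below 0.05. The Tapbp probe sets lie farthest to the right at both times, up to 1.19 at 72 h, and 1452544_x_at of H2-D1 is the only filled point left of 0.

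Over time in DMSO most class I probe sets rose. From 24 h to 72 h, 16 of the 27 member probe sets were higher and 2 lower, against 11.3% and 14.3% of all probe sets, with a median of 0.42 against 0.037 over all. H2-K1 showed the largest rises: 1425336_x_at went from a mean of 7.94 ± 0.0945 (SD) to 10.44 ± 0.345, by 2.50 ± 0.153 (5.64-fold, adjusted p = 5.4e-05 with limma), 1427746_x_at from 5.72, 5.46 and 5.71 to 8.18, 7.38 and 7.81, by 2.16 ± 0.178 (4.47-fold), and 1451931_x_at by 1.31 ± 0.075 (2.49-fold, adjusted p = 4.78e-05). The 4 H2-K1 probe sets all rose, the smallest by 0.42. Of H2-D1, 6 of 9 probe sets rose and 0 fell, led by 1425545_x_at with 1.32 ± 0.0708 (2.50-fold) and 1451784_x_at with 1.30 ± 0.0728 (2.47-fold), and 1452544_x_at, which was lower with MEKi at 72 h, rose here by 0.78 ± 0.0698 (1.72-fold). Tapbp rose by 1.41 ± 0.107 (2.65-fold) and 1.18 ± 0.119 (2.26-fold) on its probe sets and B2m by 0.52 ± 0.0719 and 0.55 ± 0.0693. Tap2 rose by 0.86 ± 0.142 (1.82-fold, adjusted p = 0.00258) and Tap1 1416016_at by 0.39 ± 0.0724 (1.31-fold, adjusted p = 0.00447). Erap1 was the gene that fell, from 6.15, 5.98 and 6.08 to 5.88, 5.79 and 5.76 on 1416942_at (-0.26 ± 0.077, adjusted p = 0.0367) and by -0.60 ± 0.129 on 1439068_at (adjusted p = 0.00924). H2-M3 (0.32 ± 0.125, adjusted p = 0.0931) and Tapbpl (0.17 ± 0.0861, adjusted p = 0.197) did not pass. Leaving out 1 array ended the calls of the dim 1450534_x_at (DMSO 24 h array 1 or 2 or 72 h array 1, adjusted p up to 0.0795), of 1426324_at (24 h array 2 or 3 or 72 h array 1 or 2, up to 0.119) and of 1416942_at (24 h array 1 or 3 or 72 h array 2 or 3, up to 0.135).

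With MEKi on the cells at both times, most class I probe sets were again higher at 72 h than at 24 h. Here 15 member probe sets were higher and 1 lower, against 11.3% and 13.9% of all, with a median of 0.38 against 0.037. H2-K1 1451931_x_at rose by 1.44 ± 0.0841 (2.71-fold, adjusted p = 1.16e-05 with limma), 1425336_x_at by 1.83 ± 0.123 (3.55-fold), H2-D1 1451784_x_at by 1.40 ± 0.0893 (2.63-fold) and 1451683_x_at by 1.73 ± 0.126 (3.32-fold). Tapbp rose by 1.73 ± 0.140 (3.32-fold) and 1.27 ± 0.0723 (2.42-fold), B2m by 0.61 ± 0.0791 and 0.69 ± 0.075, and Tap2 by 0.47 ± 0.0753 (1.39-fold, adjusted p = 0.00156). H2-M3 passed here (0.38 ± 0.0808, adjusted p = 0.00776), while Tap1 1416016_at differed by 0.07 ± 0.0793 (adjusted p = 0.559) and Erap1 fell on 1439068_at only (-0.32 ± 0.0912, adjusted p = 0.0304). That last call was lost without array 1 or 2 of either time (adjusted p up to 0.107), and the rise of H2-D1 1452544_x_at by 0.37 without 24 h array 2 or 3 or 72 h array 1 or 3 (up to 0.0943).

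**Figure D4:**
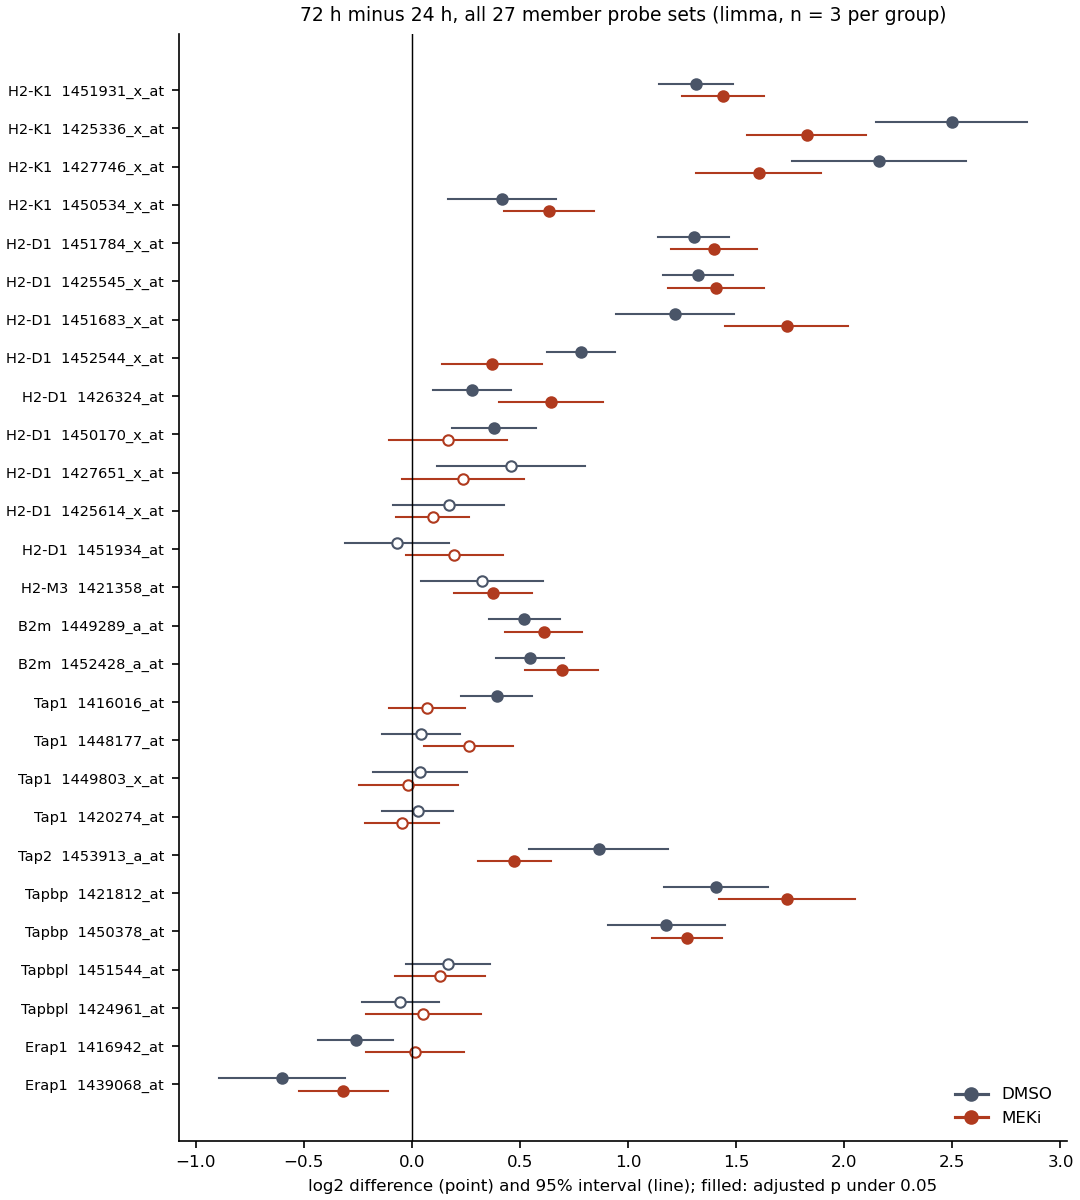
The log2 difference of 72 h minus 24 h (point) with its 95% interval (line) is plotted for all 27 member probe sets in DMSO and with MEKi, filled where the adjusted p of limma was below 0.05. Most bright probe sets lie right of 0 in both, 1425336_x_at of H2-K1 farthest in DMSO at 2.50, and the Erap1 probe sets lie left of 0 in DMSO.

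The times also differed technically. For the Dap control RNA, which is added before labelling, the signal at the 3' end exceeded that at the 5' end by 2.055 ± 0.076 log2 units (SD, n = 6) at 24 h and by 1.415 ± 0.044 at 72 h, and the array medians were 5.31 to 5.34 at 24 h and 5.36 to 5.42 at 72 h. Time in culture and labelling cannot be told apart in these arrays. The MEKi comparisons are each within 1 time. As these are bulk samples, more RNA per cell and more cells of a kind cannot be told apart either.

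Whether the MEKi effect differed between 72 h and 24 h was tested as a contrast on all 12 arrays. Of the 27 member probe sets 0 were called with limma, against 1.36% of all probe sets called higher and 1.66% lower. An unadjusted p below 0.05 was seen for 2 higher and 5 lower, and the share of all probe sets at that threshold is not given. The largest differences of effect were -0.67 ± 0.216 for H2-K1 1425336_x_at (adjusted p = 0.123) and 0.52 ± 0.190 for H2-D1 1451683_x_at (adjusted p = 0.185). With the replicate number as a block these were the calls that passed, with an adjusted p of 0.0283 and 0.0384. For Tap1 1416016_at the effects of 0.20 and -0.12 differed by -0.32 ± 0.102 (adjusted p = 0.113), and for H2-D1 1452544_x_at by -0.41 ± 0.126 (adjusted p = 0.104). The Tapbp effects differed by 0.33 ± 0.193 (95% interval -0.09 to 0.74) and 0.10 ± 0.143 (-0.21 to 0.40).

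The lists around the class I pathway held 0 to 2 called genes each with MEKi, beside 3.83% of all probe sets called higher and 4.61% lower at 24 h and 2.99% and 4.25% at 72 h. These shares are for calls. None is given for the counts at an unadjusted p below 0.05, here and in the next paragraph. Of 23 other class I and class I-like heavy chains 12 were measured, and at 24 h 2 were higher and 0 lower, with a list median of 0.06: Mr1, which presents vitamin B metabolites, by 0.47 ± 0.0596 (adjusted p = 0.00503 with limma) and Hfe, which regulates iron uptake, by 0.49 ± 0.0806 (adjusted p = 0.011). At 72 h none of the 12 passed (median 0.09, 3 with an unadjusted p below 0.05), with Mr1 at 0.22 and Hfe at 0.33. Hfe (adjusted p = 0.0775 with limma) passed at 72 h under 5 alternatives (adjusted p down to 0.0298). Of 12 genes of folding and quality control in the endoplasmic reticulum 0 passed at either time with limma, and 4 and 1 had an unadjusted p below 0.05. Among them the class I chaperones Calr, Canx and Pdia3 differed by 0.09, 0.10 and 0.18 at 24 h and by 0.34, 0.04 and 0.20 at 72 h. Their list had medians of 0.11 and 0.12. With the probe sets limited to those above the median, 4 of these 12 passed at 24 h. The share of all probe sets that passed in that fit is not given here.

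Of 10 measured genes that supply peptides in the cytosol, 1 was lower at 24 h, the peptidase Thop1 (-0.46 ± 0.0881, adjusted p = 0.0177 with limma), and 0 passed at 72 h, where 1 had an unadjusted p below 0.05. The list medians were -0.13 and 0.08. Among probe sets above the median alone, 5 of these genes passed at 24 h. That fit left out dim genes of the list, and the share of all its probe sets that passed is not given here. The immunoproteasome subunits Psmb8 and Psmb9 differed by -0.10 and -0.04 at 24 h and by 0.25 and -0.01 at 72 h, and the proteasome activator Psme1 by 0.11 and 0.09, none of them called. Of 18 measured regulators of class I transcription, 1 was higher and 1 lower at 24 h, Rfxank (0.41 ± 0.0786, adjusted p = 0.0177) and Nfyb (-0.35 ± 0.0621, adjusted p = 0.0137), which encode subunits of RFX and NF-Y, factors that bind class I and class II promoters. At 72 h Nfyb alone was lower (-0.50 ± 0.105, adjusted p = 0.0203). The list medians were 0.02 and 0.005, and among probe sets above the median alone 5 regulators passed at 24 h, again without dim genes and without that share. Leaving out 1 array ended the calls of Thop1 (any DMSO array or MEKi 1 or 2, adjusted p up to 0.0725), Rfxank (DMSO 2 or 3 or MEKi 1 or 2, up to 0.0771) and Nfyb (DMSO 1 or 3 or MEKi 1 or 2 at either time, up to 0.0906). Nlrc5, the class I transactivator, was dim and differed by 0.11 ± 0.0779 at 24 h and -0.40 ± 0.112 at 72 h (adjusted p = 0.0603 with limma, and 0.0337 with the replicate block). At 72 h it passed under 5 alternatives (adjusted p down to 0.0170). These were the block, all 12 arrays in 1 fit, a trended and robust prior, array weights, and leaving out MEKi array 1. Irf1 differed by -0.18 and 0.06. Of 7 measured genes of class II and its loading, 0 passed at either time with limma (2 and 1 with an unadjusted p below 0.05).

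Over time in DMSO 5 of the 12 other heavy chains rose and 0 fell (median 0.21), 1 of 12 folding genes rose, 1 of 10 peptide supply genes rose (Psme1, 0.60 ± 0.077, adjusted p = 0.000777 with limma) and 3 fell, and 6 of 18 regulators rose and 4 fell, beside 11.3% of all probe sets called higher and 14.3% lower. The leukocyte markers, of which 3 of 9 rose and 0 fell over the same interval, are to be read beside these, and their part was not tested.

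The genes whose 12 values ran closest to a member were sought among 11333 other genes with a brightest probe set above the median, by the root mean square difference of the values after centring each gene on its mean. For H2-K1 the closest was H2-D1 at 0.05 log2 units, through the probe sets with the x mark described above, followed by Nos3 at 0.12 and Car11 at 0.13. For B2m they were Snapin, Fbxl5 and Kif3c, each at 0.07, and for Tap1, which varied little, Arl2, Avpi1 and Smpd2, each at 0.06. These are descriptions over 12 arrays that share their groups.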

How the data were processed

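Members, gene lists and alternatives were chosen with earlier results of these data known. Total RNA (200 ng) was labelled for 3' arrays, which the authors normalized by RMA per the labels, which corrects background, equalizes the arrays' distributions and sums up probes. The deposited values are log2 RMA signals, 2.21 to 14.47, and were used as they stand. The software version is not given in the sources used here, and precision is limited by the 3 arrays of a group. From 45101 probe sets, 64 controls were left out. The annotation paired 34945 with 1 gene, 932 with several and 9160 with none. Each comparison was a limma 3.58.1 fit (R 4.3.3) on its own 6 arrays, two-sided, without covariates, with Benjamini-Hochberg adjustment over 45037 probe sets. The difference of effects used 12 arrays. A list gene was read by its brightest own probe set.

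The rule for naming took every own probe set of the members, up to 2 called genes per list with the largest change in each MEKi comparison, genes set in advance (Nlrc5, Irf1, Psmb8, Psmb9, Psme1, Calr, Canx and Pdia3), and 3 nearest profiles each for 3 genes. The fits were tested on simulated data. The replicate numbers were checked as pairs within a time: deviations of same-numbered DMSO and MEKi arrays correlated at 0.207 to 0.307 over probe sets above the median and at 0.0729 to 0.189 over all, and differently numbered ones at -0.288 to 0.00234 and -0.156 to 0.0322. Deviations from a group mean cancel within the group, so positive values for same-numbered arrays make the others negative on average. Those others are thus not separate evidence for pairs. Same-numbered arrays were taken as pairs, though the main fits did not use the pairs. Where the block changed a call of a member or named gene, this is given beside the result.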

Additional observations from a re-analysis of the deposited data

Results flagged for a closer look

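In the contrast on 12 arrays the MEKi effect differed between the times for 4 of 107 member probe sets and list genes looked at. They were Irf2, a regulator of interferon-responsive genes, and 3 genes of the ERK output list, the check of the drug. Over all probe sets 1.36% were called higher and 1.66% lower in this contrast. The count itself is therefore not read as a result about the lists. The Irf2 probe set 1418265_s_at differed by -0.39 with MEKi at 24 h and by 0.17 at 72 h, a difference of effects of 0.56 ± 0.140 (adjusted p = 0.0480 with limma). Neither effect passed on its own (adjusted p = 0.058 and 0.327), while the one at 24 h passed under 4 alternatives (adjusted p down to 0.0215): all 12 arrays in 1 fit, probe sets above the median, a trended and robust prior, and array weights. For the difference, the adjusted p ran from 0.0242 to 0.117 over 18 alternatives, and the call was lost in 13 of them: with the replicate block (adjusted p = 0.0543), with arrays centred on their median, with array weights, and without any 1 array but the third DMSO array at 24 h and the first at 72 h. Of the ERK output genes, the Spry4 effect went from -2.08 at 24 h to -0.58 at 72 h, a difference of effects of 1.5 ± 0.217 (adjusted p = 0.00351 with limma). That of Etv4 went from -0.88 to 0.02 (0.90 ± 0.128, adjusted p = 0.00329) and that of Etv5 from -4.06 to -1.29 (2.77 ± 0.483, adjusted p = 0.00852). These 3 calls were kept under every alternative run for them, with an adjusted p of up to 0.0313. In DMSO the mean signal fell from 24 h to 72 h, for Spry4 from 6.02 to 4.35, for Etv4 from 6.28 to 5.57 and for Etv5 from 8.94 to 5.35. With MEKi it went from 3.94 to 3.77, from 5.40 to 5.59 and from 4.88 to 4.06. The smaller effects at 72 h thus came with lower DMSO levels.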

How the results depend on the processing

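Over 1784 values of member probe sets under an alternative, 1680 kept their side of the threshold, 74 lost a call and 30 gained one, and 0 reversed, while 56 changed sign without a call in either setting. Leaving out 1 array gave 1 to 9 called member probe sets at 24 h (main 6), 4 to 7 at 72 h (main 10), 16 to 17 over time in DMSO (main 18), 14 to 16 with MEKi (main 16) and 0 to 1 for the difference of effects (main 0). The 9 at 24 h came without MEKi array 3, the 1 without MEKi array 1 or 2, and the 4 at 72 h without MEKi array 2. The share of all probe sets called in each of these fits is not given. The swing thus cannot be read as particular to the members. The same holds for the counts below without the x mark and with a gene's probe sets averaged. Of the 15 probe sets without the x mark 3 were called at 24 h, 5 at 72 h, 9 over time in DMSO and 8 with MEKi. With a gene's probe sets averaged, 3 member genes passed at 24 h (main 4), B2m, Tapbp and Tapbpl, and 2 at 72 h (main 4), B2m and Tapbp. H2-K1 and H2-D1 then passed at neither time. Their probe sets differed by -0.03 to 0.49 and by -0.07 to 0.37 at 24 h. At 72 h they differed by -0.31 to 0.46 and by -0.43 to 0.70. For the difference of effects 2 probe sets passed with the replicate block, 2 among the probe sets above the median and 1 with array weights. The replicate block changed no other call among the member probe sets than those given beside the results. Among probe sets above the median, 4 folding, 5 peptide supply and 5 regulator genes passed at 24 h (main 0, 1 and 2). The share of all probe sets above the median that passed in that fit is not given, so these counts cannot be set against it. Pairing within a time leaves no block for the comparisons between times. Where the arrays were limited to brighter probe sets, fewer features were tested. Otherwise the cause was not tested. Low signal limits what could be seen for the 10 of 27 member probe sets below the median, among them 3 of Tap1 and 4 of H2-D1.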
